A study of Mus musculus with 8 samples.

Results

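CTCF binding sites just downstream of transcription start sites (TSSs) were examined in immortalised mouse embryo fibroblasts (iMEF) upon HOT treatment. A site was taken when its centre lay 1 to 1000 bp downstream of the nearest TSS of a protein-coding transcript, in the direction of transcription. On mm9 with GENCODE vM1, 3518 of the 104008 sites in the deposited table (3.38%) met this rule. They lay at 3270 genes on 20 chromosomes. Of these genes, 3043 had 1 such site, 227 had 2 or more, and the most at any gene was 4. Sites at the same gene are not independent. A filter on low counts was passed by 3417 of the 3518 sites and not by 101, so the values below describe the tested sites. The sites were 177 to 2155 bp wide, with a median of 394 bp against 372 bp for all sites. The closest comparison was with the 4060 sites 1 to 1000 bp upstream of a TSS, of which 3986 were tested.

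CTCF is a zinc finger protein that recognises a long, GC-rich DNA motif and marks insulators and the anchors of chromatin loops formed by cohesin. Many of its sites lie at promoters, where the first nucleosomes of the gene typically carry H3K4me3. This mark is set by KMT2 methyltransferases, which need the subunits WDR5, RBBP5, ASH2L and DPY30. CpG islands, stretches of DNA dense in the dinucleotide CG, overlap many TSSs and reach into the first exon and first intron.

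The genotype of the cells was Ash2l fl/fl / Cre-ER (line iMEF2), with exon 4 of Ash2l floxed on both alleles, and they had been immortalised with an shRNA against p19Arf. HOT (4-hydroxytamoxifen, 5 nM) activates Cre-ER, which removes this exon. Control cells of the same line received ethanol vehicle (-HOT), and both were collected on day 7. Each treatment has 2 CTCF immunoprecipitations, used here, and 2 inputs, which were not analysed, so reads per site stand for ChIP signal and not for occupancy as such. Vehicle-treated cells were passaged once more than HOT-treated cells, whose proliferation stops. Ash2l loss, HOT itself, Cre-ER activity, growth arrest and handling therefore cannot be told apart.

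Site reads ranged from 3126722 and 4221752 in -HOT to 7653295 and 9280701 in +HOT. The deposited columns are numbered R1 and R3. By the study's methods the libraries of a treatment are technical replicates, and 1 line was used, so the p-values reflect a spread that may be technical only. Replicates differed by more than sampling, with a chi-square per degree of freedom of 1.097 in -HOT and 1.372 in +HOT. At the site over exon 4 of Ash2l (chr8:26946472-26946648), which is not among the sites described here, reads went from 17.7 and 11.9 without HOT to 6.51 and 14.8 with HOT (edgeR adjusted p = 0.543, log2FC -0.54, SE 0.52). The groups overlapped, so the deletion was not detected at this site, which held few reads. The reason was not tested. Reads at a site are given throughout as normalised reads, that is, counts scaled to the mean effective library size. The ChIP counts give no check of the cell type.

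The sequences under these sites varied in whether they held a CTCF motif and in their number of CG dinucleotides. A matrix of 20 positions built from the strongest sites was scored in the central 300 bp on both strands, with a match at 12.69 bits or more. It found a match in 40.7% of the tested downstream sites, 51.2% of the upstream sites and 72.5% of the sites farther away. The matches below are those of the strongest site of each of 4 distance intervals, and of the 3 lost and the 3 gained sites with the smallest p among the named sites with a match. They are shown in the orientation of the matrix, with the 20 matched bases in capitals, 5 bases of flank on each side, and the mm9 position and strand of the match.
Gm962, not called, chr19:5568366-5568385, minus strand: cctttACGGCCACTAGAGGGCGCCCaggtc
Celsr2, not called, chr3:108204871-108204890, minus strand: tgcagGCCGTCACCAGGGGGCGCAGcacca
Wwox, not called, chr8:116963957-116963976, plus strand: ccctgCCGCTCACTAGGTGGCACTGcaccg
2010109K11Rik, not called, chr12:33064212-33064231, plus strand: gcgcaACGCCCAGGAGGAGGCGCCGtggag
Hira, lost, chr16:18877976-18877995, minus strand: gctgaAAGGCCACAAGGGGGATGTCgcccc
Sfi1, lost, chr11:3093091-3093110, plus strand: cggagCTCTCCACCAGGGGGAGAAGgatgc
Inpp5k, lost, chr11:75445289-75445308, plus strand: acctgCCGGACAGCAGGGGGAGACTgtaaa
Crybb3, gained, chr5:113509041-113509060, minus strand: tcactGAGGTCACCAGGGGGCGGTGcagac
Grik4, gained, chr9:42616674-42616693, minus strand: atgccCAGACCAGCAGAGGGCTCCAtgagg
Olfr304, gained, chr7:93534471-93534490, minus strand: agattCCTACCACTAGAGGTCAGTCcaaag
The Gm962, Celsr2, Wwox and 2010109K11Rik matches scored 25.34, 19.71, 17.05 and 15.98 bits, and the Hira, Sfi1 and Inpp5k matches 13.41, 14.99 and 13.15 bits. Scores of the gained sites were 20.17 bits at Crybb3, 16.43 at Olfr304 and 17.96 at Grik4. A match was present at 7 of the 14 lost sites named by p (13.15 to 15.87 bits) and at 4 of the 8 gained ones (15.97 to 20.17 bits). Over all downstream sites with a match, the median score was 15.04 bits at the 107 lost sites with one (quartiles 14.09 and 16.28). It was 16.43 bits at 13 gained sites (quartiles 15.68 and 17.43) and 15.66 bits at 1271 sites that were not called (quartiles 14.25 and 18.27). The quartiles of the 3 groups overlapped.

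Most downstream sites had no match. The central 120 bases of the 2 lost sites with the smallest p and no match are given on the strand of the gene, with every CG in capitals, to show such sequence. Both lie in a first intron.
Cdc34, lost, chr10:79145875-79145994, plus strand: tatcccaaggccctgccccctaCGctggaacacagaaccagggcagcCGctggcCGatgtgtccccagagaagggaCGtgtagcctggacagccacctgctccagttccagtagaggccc
Bsg, lost, chr10:79167397-79167516, plus strand: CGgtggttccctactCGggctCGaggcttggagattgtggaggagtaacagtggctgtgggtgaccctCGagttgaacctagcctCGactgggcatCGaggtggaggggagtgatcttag
The Cdc34 window holds 4 CG dinucleotides and the Bsg window 6. Those of the next 2 such sites, Camta1 and Itfg3, hold 8 and 5. In the central 300 bp, the median number of CG dinucleotides was 21 at downstream sites, 14 at upstream sites and 3 at sites farther from a TSS.

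Which way did these sites move upon HOT treatment? As a class they held a smaller share of the site reads. Their raw reads rose from a mean of 162600 in -HOT to 283600 in the deeper +HOT libraries. The fall is thus relative to the other sites. The downstream sites together held 4.406% (R1) and 4.453% (R3) of all site reads in -HOT, and 3.362% and 3.335% in +HOT. Both +HOT libraries lay below both -HOT libraries, and the gap was far larger than the spread within a treatment (4.429 ± 0.0331% against 3.348 ± 0.0187%, SD, n = 2 each). The two-sided exact permutation test gave p = 0.33, the lowest value possible with 4 libraries, so it could not separate the groups. The median over sites was 45.5 normalised reads in -HOT and 31.5 in +HOT. The median log2FC of +HOT over -HOT was -0.47 (quartiles -0.76 and -0.19), beside 0.009 over all tested sites. Taken singly against the mean of -HOT, the +HOT libraries had medians of -0.41 (R1) and -0.44 (R3) at downstream sites, and of 0.024 and 0.03 at all sites.

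Site by site, 407 of 3417 downstream sites (11.9%) were lost and 21 (0.615%) gained, with both thresholds applied (edgeR adjusted p under 0.05, log2FC beyond 1 in either direction). Over all 99560 tested sites 1.5% were lost and 3.9% gained. Downstream sites thus made up 3.43% of the tested sites, 27.3% of the lost ones and 0.542% of the gained ones. The 407 lost sites lay at 403 genes and had log2FC values from -2.86 to -1.003 (median -1.28); 357 of them had a mean of at least 20 normalised reads. The gained sites lay at 21 genes, none of which also had a lost site. By the edgeR adjusted p alone, 1211 downstream sites were lower (35.4%, against 9.08% of all sites) and 49 higher (1.43%, against 9.45%). The libraries of the 2 treatments did not overlap and were lower in +HOT at 2228 sites (65.2%, against 27.2% of all), and higher at 233 (6.82%, against 29.6%). GC content stood apart along with the change, since the median downstream site had 62% GC in its central 500 bp and the median of all tested sites 44%. When libraries were scaled along site strength and GC together, the median log2FC of downstream sites was -0.19 (all sites -0.025), and 314 of them (9.19%) were lost against 1.7% of all sites. Of the 407 losses, 269 (66.1%) were also called with that scaling. By the edgeR adjusted p alone it left 582 downstream sites lower (17.0%, against 4.38% of all sites) and 157 higher (4.59%, against 5.26%).

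Sites upstream of the TSS moved the same way. Of 3986 upstream sites, 257 (6.45%) were lost and 37 (0.928%) gained, with a median log2FC of -0.38. By the edgeR adjusted p alone 1448 were lower (36.3%, against 35.4% downstream) and 94 higher (2.36%, against 1.43%). Scaled along strength and GC, the median was -0.15, with 604 lower (15.2%, against 17.0% downstream) and 261 higher (6.55%, against 4.59%). Pooled over all strengths, the share of lower sites was thus similar on both sides of the TSS. Upstream sites were stronger, with a median of 60.6 normalised reads against 38.1 downstream. In classes of up to 20, 20 to 40, 40 to 80, 80 to 160 and over 160 reads, downstream shares with TMM were higher. They were 6.17%, 29.7%, 42.5%, 49.1% and 76.1%, against 3.88%, 22.7%, 29.6%, 40.5% and 75.2% upstream. Along strength and GC they were 2.22%, 18.3%, 33.5%, 24.0% and 6.65%, against 2.45%, 17.4%, 30.2%, 20.9% and 5.2%. The share of reads in upstream sites was 6.816% and 7.002% in -HOT and 5.495% and 5.518% in +HOT. Relative to the upstream sites, the downstream sites held 0.6464 and 0.636 times as many reads in -HOT, and 0.6118 and 0.6045 times as many in +HOT. This ratio was lower in both +HOT libraries (0.6081 ± 0.00517 against 0.6412 ± 0.00741, SD, n = 2 each). The difference was -0.0331. With 2 against 2 libraries the two-sided exact permutation test cannot give a p below 0.33, the value it gave here, so it could not separate the groups. At 296 TSSs a site was tested on both sides, with a median log2FC of -0.50 downstream and -0.39 upstream. The downstream site was the lower one at 168 of them (56.8%). Only the downstream site was lost at 34 TSSs, only the upstream one at 27, and both at 6.

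**Figure D1:**
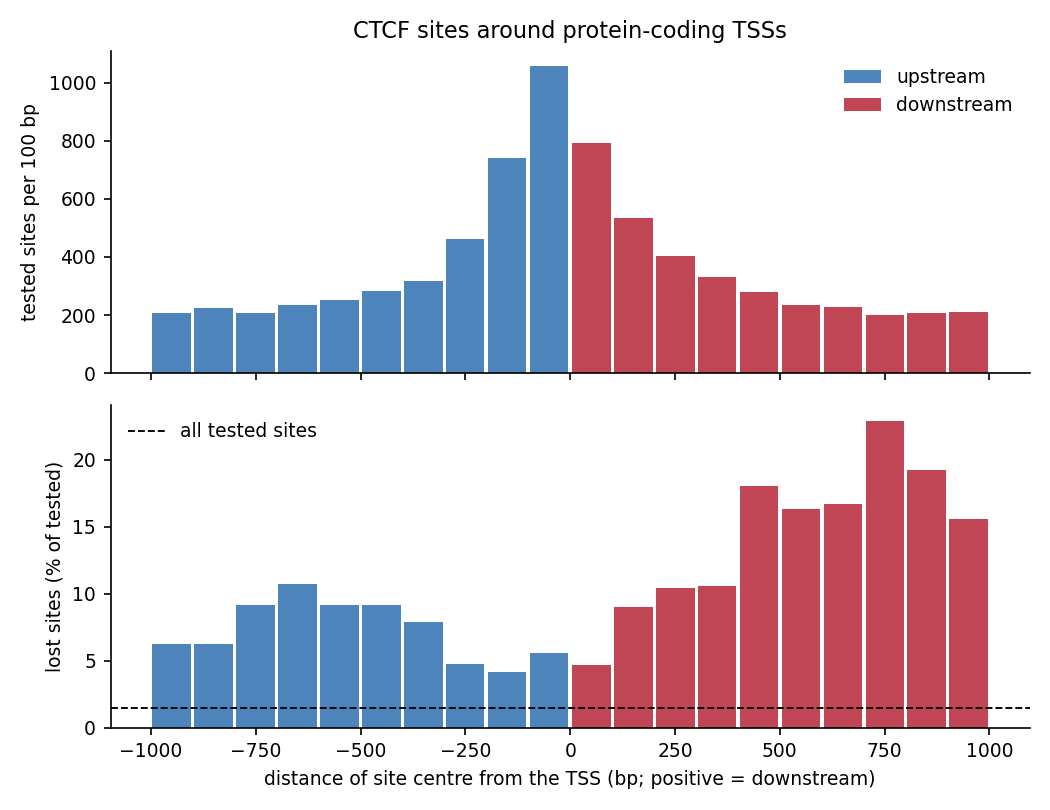
Tested CTCF sites per 100 bp (upper panel) and the percentage of them that were lost (lower panel), by the distance of the site centre from the TSS in bp; blue bars are upstream and red bars downstream, and the dashed line is the 1.5% of all tested sites that were lost. Sites were densest next to the TSS, while the lost share downstream rose from 4.67% at 1 to 100 bp to 22.9% at 701 to 800 bp.

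Losses were less frequent next to the TSS than farther into the gene. Within 1 to 250 bp, 101 of 1528 tested sites (6.61%) were lost, and over 250 to 500 bp 111 of 808 (13.7%). The share was 17.3% (99 of 571) over 500 to 750 bp and 18.8% (96 of 510) over 750 to 1000 bp. The median distance from the TSS was 488 bp at lost, 271 bp at not called and 659 bp at gained sites. The plot by distance shows the rise in steps of 100 bp, from 37 of 792 sites (4.67%) at 1 to 100 bp to 46 of 201 (22.9%) at 701 to 800 bp. Upstream of the TSS the corresponding shares were 4.97%, 7.55%, 10.1% and 6.44%.

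With TMM scaling the median shift was similar at all distances, which other scaling changed. Median log2FC values in the 4 downstream intervals were -0.45, -0.50, -0.50 and -0.43, and the reads of each interval, as a share of all site reads, fell to 0.767, 0.737, 0.743 and 0.765 of their -HOT level. Other properties did change along the gene. From the first interval to the last, median GC went from 66.4% to 50.5%, and the share of sites in CpG-island-like sequence from 77.9% to 22.5%. Among sites with 20 to 80 normalised reads the lost shares were 11.9%, 21.3%, 28.6% and 28.5%. Scaled along strength and GC, the lost shares were 3.34%, 9.78%, 15.6% and 18.6%, and the medians -0.093, -0.25, -0.33 and -0.30, so the median of the first interval was then the closest to 0. The outer limit of 1000 bp did not coincide with a step: over 900 to 1000 bp 33 of 212 sites (15.6%) were lost, and just outside, over 1000 to 1100 bp, 38 of 214 (17.8%).

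By annotation, lost sites were most frequent in introns. Of 1526 tested sites in a first intron, 249 (16.3%) were lost, against 73 of 679 (10.8%) in coding exons and 63 of 1086 (5.8%) in UTRs. A further 20 of 107 sites (18.7%) were lost in other introns or exons. Median log2FC values were -0.50 in first introns, -0.46 in coding exons and -0.44 in UTRs. By the edgeR adjusted p alone the shares differed less, with 37.5%, 35.8% and 32.2% of these sites lower. Their median strengths were 34.6, 40.3 and 43.3 normalised reads. Feature and distance go together, as UTRs lie next to the TSS, and their parts were not tested separately. Scaled along strength and GC, the lost shares were 14.4% in first introns, 5.45% in coding exons and 3.13% in UTRs. A TSS on the opposite strand within 1000 bp upstream, as at divergent gene pairs, was found for 324 tested sites. Of these 64 (19.8%) were lost and 0 gained, with a median log2FC of -0.55. By the edgeR adjusted p alone 146 (45.1%) were lower and 0 higher, or 96 (29.6%) and 10 (3.09%) when scaled along strength and GC. At the other 3093 sites 343 (11.1%) were lost, 1065 (34.4%) were lower and the median was -0.45.

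Lost shares, with both thresholds applied, also differed by sequence. CpG-island-like sequence (over 50% GC and a CpG ratio over 0.6 in the central 500 bp) was found at 59.6% of downstream sites, 47.2% of upstream sites and 1.25% of the sites farther away. Sites with neither such sequence nor a matrix match were lost most often, at 155 of 656 (23.6%, median log2FC -0.55). CpG-island-like sites without a match were lost at 10.6% of 1370 (median -0.52) and those with a match at 6.59% of 668 (median -0.47). Sites with a match outside such sequence were lost at 8.71% of 723 and had the smallest median shift, -0.24. By the edgeR adjusted p alone the order was another. Lower sites made up 43.6% of the CpG-island-like class with a match and 32.8% of that without. In other sequence they made up 27.1% with a match and 41.9% without. The classes also differed in strength, with medians of 68.1, 32.5, 50.6 and 29.9 normalised reads in this order, and its part was not tested. Upstream sites had lower lost shares in the same order of classes, 13.1%, 5.21%, 3.56% and 4.78%, and sites farther away 1.82%, 7.12%, 2.78% and 0.484%.

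**Figure D2:**
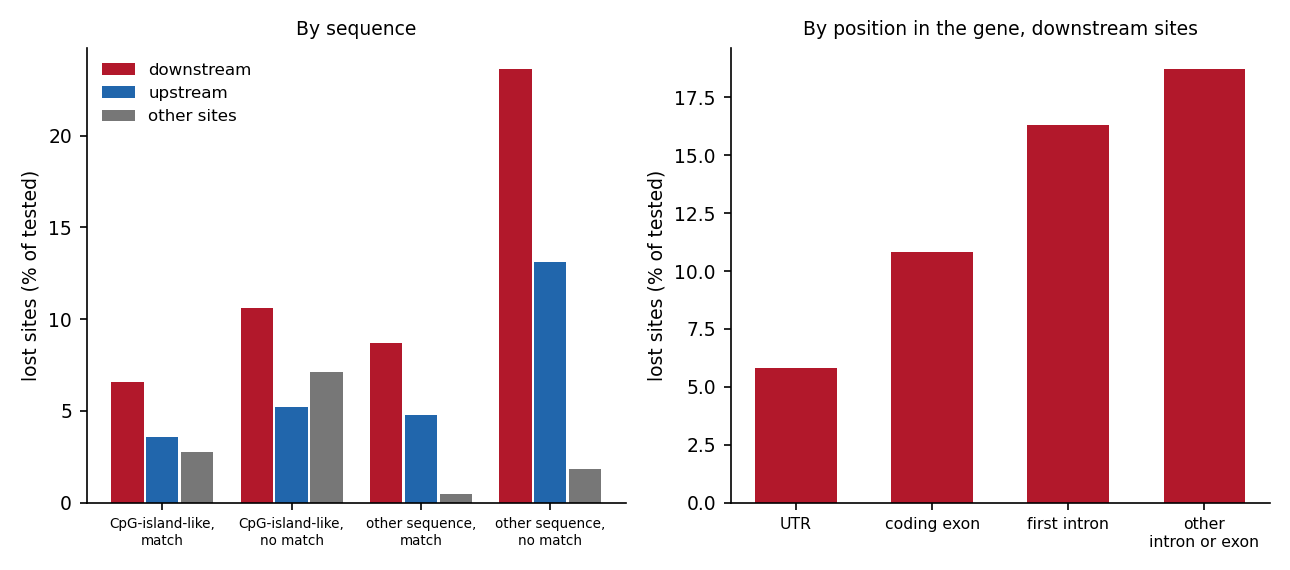
Percentage of tested sites that were lost, by sequence class (left; red downstream, blue upstream, grey all sites beyond 1000 bp or at the TSS itself) and by position in the gene for downstream sites (right). In each sequence class the red bar is the tallest; downstream sites without CpG-island-like sequence or a match reached 23.6%, and sites in a first intron 16.3% against 5.8% in UTRs.

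In the class without either feature, distance still went along with the lost share, which was 11.9%, 20.4%, 32.3% and 31.7% over the 4 intervals. At sites with a match outside CpG-island-like sequence it was 3.5%, 9.41%, 9.66% and 10.7%. The lost sites as a whole had a match in 26.3% of cases and CpG-island-like sequence in 46.4%, against 42.5% and 61.8% of the sites not called. Of the 21 gained sites, 13 (61.9%) had a match and 1 CpG-island-like sequence. By orientation of the match, 8.62% of 719 sites with a match on the strand of the gene and 6.7% of 672 sites with one on the opposite strand were lost (median log2FC -0.39 and -0.34). Scaled along strength and GC, the lost shares were 2.25% and 4.82% in CpG-island-like sequence with and without a match, and 9.82% and 24.7% in other sequence.

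**Figure D3:**
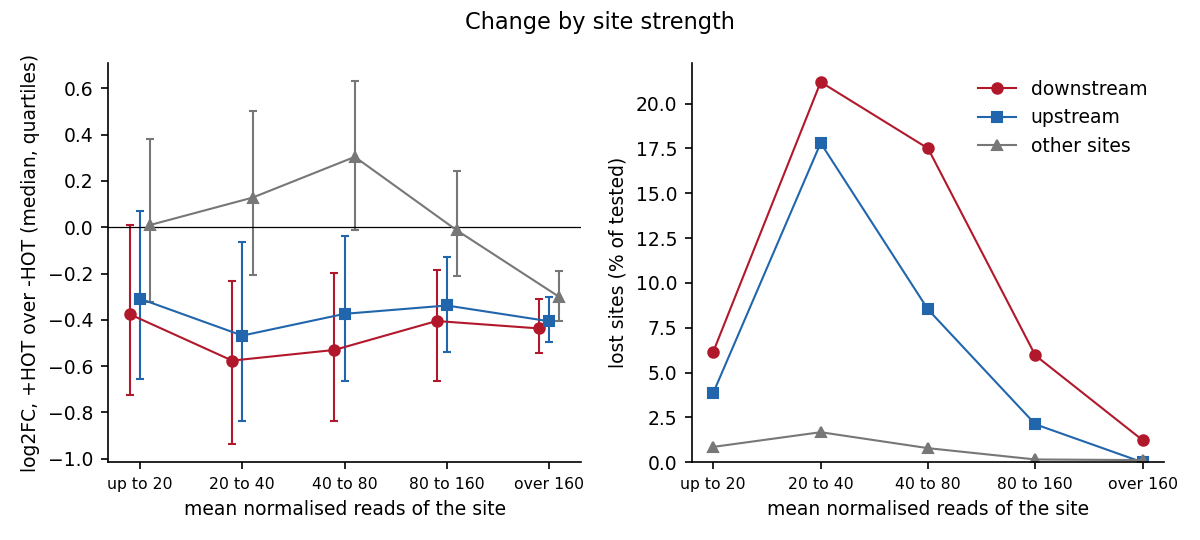
Median log2FC of +HOT over -HOT with quartiles (left) and percentage of tested sites lost (right), by the mean normalised reads of the site, for downstream (red circles), upstream (blue squares) and other sites (grey triangles), all with TMM scaling. The downstream median stays between -0.58 and -0.38 at every strength, whereas that of the other sites runs from 0.304 down to -0.301.

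Site strength, the mean over the 4 libraries, bore on the calls more than on the shift with TMM scaling. Median log2FC values of downstream sites were -0.38, -0.58, -0.53, -0.41 and -0.44 for sites of up to 20, 20 to 40, 40 to 80, 80 to 160 and over 160 normalised reads. Lost shares in these classes were 6.17%, 21.2%, 17.5%, 5.96% and 1.23%. Few weak sites pass the test, and among the 406 strongest sites 309 (76.1%) were lower by the edgeR adjusted p but 5 reached the fold threshold. Strong sites were often lower elsewhere too: over 160 reads, 75.2% of upstream sites, 46.9% of sites far from a TSS and 51.0% of all sites. Sites far from a TSS had medians of 0.01, 0.13, 0.30, -0.014 and -0.30 in the same classes. The gap to downstream sites was therefore widest at 40 to 80 reads and narrowest over 160 reads, as the plot by strength shows. At upstream sites over 160 reads the lost share was 0%. The direction of the strongest downstream sites depended on the scaling. Scaled along strength alone, those over 160 reads had a median of -0.11, with 58 lower and 7 higher by the edgeR adjusted p (14.3% and 1.72%, against 6.61% and 3.14% upstream). With GC included, their median was 0.13, with 27 lower and 106 higher (6.65% and 26.1%, against 5.2% and 17.2% upstream). The classes of weaker sites then had medians of -0.096, -0.37, -0.42 and -0.14.

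The strongest site of each distance interval was lower in +HOT with TMM scaling, without reaching the fold threshold, and this direction turned with scaling along strength. Gm962 (chr19:5567338-5569273, UTR, 231 bp from the TSS) held 741 and 764 reads against 595 and 574 (log2FC -0.36, SE 0.068, edgeR adjusted p = 7.53e-05). Wwox, which encodes an oxidoreductase with WW domains (chr8:116963226-116964572, first intron), held 706 and 729 against 477 and 519 (log2FC -0.53, SE 0.071, edgeR adjusted p = 1.09e-07). The groups overlapped at neither site. Celsr2, a cadherin of the planar cell polarity pathway (chr3:108204455-108205199), held 452 and 436 against 328 and 352 (log2FC -0.39, SE 0.084, edgeR adjusted p = 0.000454). At 2010109K11Rik (chr12:33063782-33064926, coding exon) the values were 434 and 486 against 323 and 347 (log2FC -0.45, SE 0.085, edgeR adjusted p = 6.71e-05). All 4 sites contain a match, and in these normalised reads each was lower in both +HOT libraries. Scaled along strength, the log2FC was 0.34 at Gm962 (edgeR adjusted p = 3.82e-05), 0.14 at Wwox (0.162), 0.14 at Celsr2 (0.281) and 0.086 at 2010109K11Rik (0.57). Along strength and GC, it was 0.56 at Gm962 (edgeR adjusted p = 1.18e-09), 0.25 at Wwox (0.008), 0.22 at Celsr2 (0.0563) and 0.34 at 2010109K11Rik (0.00161). Their direction thus depends on the scaling.

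**Figure D4:**
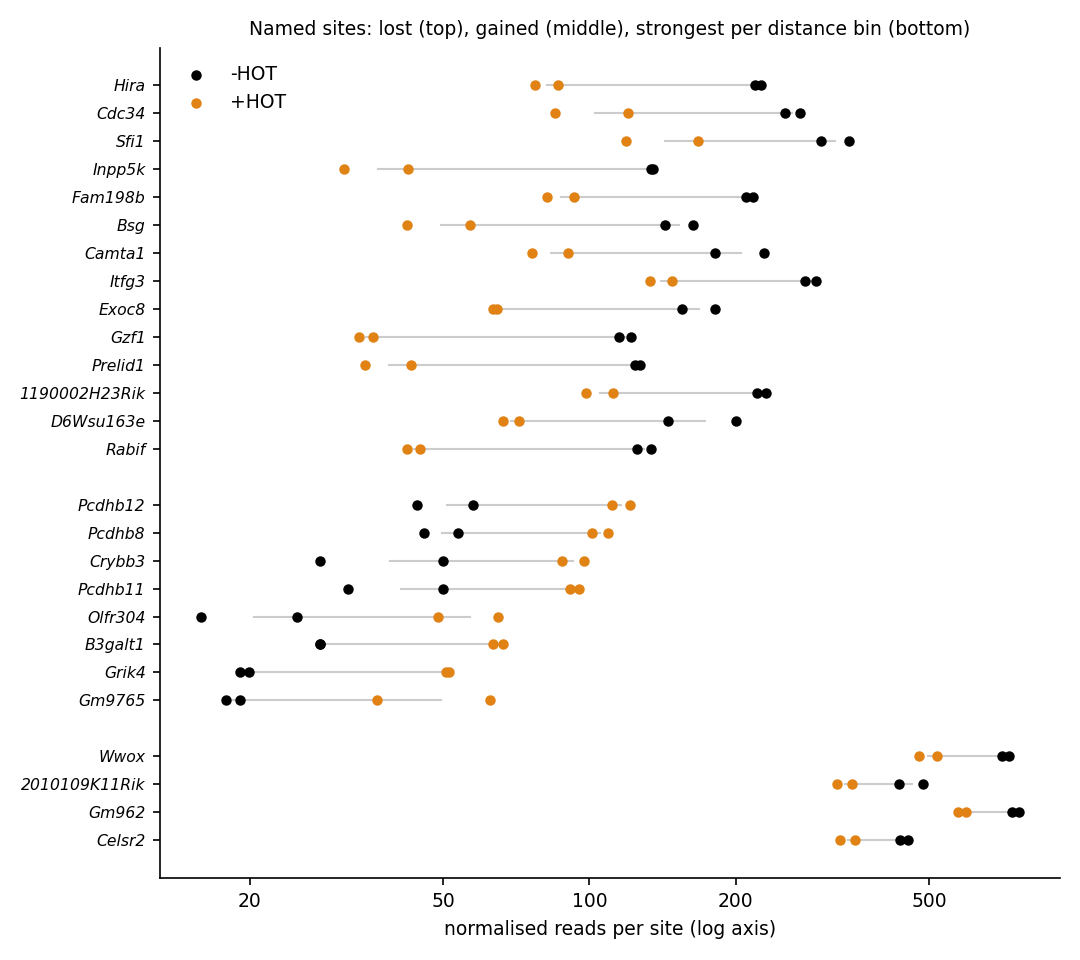
Normalised reads per site (log axis) in each library of -HOT (black) and +HOT (orange) at the 14 lost and 8 gained downstream sites with the smallest p and at the strongest site of each distance interval; grey lines join the group means. No plotted site has overlapping groups, which the choice of the lost and gained sites required, and the 4 strongest sites differ less between the groups than the lost ones; the reads are TMM-scaled, and scaling along strength turns the direction of these 4.

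Among the 14 lost sites with the smallest p, Rabif, which encodes a chaperone of Rab GTPases (chr1:136391510-136391939, first intron, 499 bp from the TSS), fell from 134 and 125 reads to 44.9 and 42.1 (log2FC -1.57, SE 0.19, edgeR adjusted p = 3.25e-09). Exoc8, encoding an exocyst subunit (chr8:127420458-127421016, coding exon, 868 bp), held 181 and 155 against 64.5 and 63.2 (log2FC -1.41, SE 0.16, edgeR adjusted p = 8.22e-10). The groups did not overlap at either gene, which the choice of the 14 sites required.

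At Camta1, which encodes a calmodulin-binding transcription activator (chr4:151234570-151235462, first intron, 839 bp), reads fell from 228 and 181 to 76.2 and 90.5 (log2FC -1.32, SE 0.14, edgeR adjusted p = 2.08e-10). Gzf1, a zinc finger gene (chr2:148507090-148507482, first intron, 339 bp), went from 122 and 115 to 35.8 and 33.5 (log2FC -1.77, SE 0.20, edgeR adjusted p = 8.8e-10). Neither site has a match, although Gzf1 at 12.25 bits came close to the threshold. Prelid1, whose product carries phosphatidic acid between the mitochondrial membranes (chr13:55423801-55424174, first intron, 571 bp), held 124 and 127 against 34.5 and 42.9 (log2FC -1.70, SE 0.20, edgeR adjusted p = 1.24e-09).

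Other sites in this set differed in how firm their calls were. Itfg3 (chr17:26380290-26381287, first intron) held 277 and 293 against 148 and 133 (log2FC -1.01, SE 0.11, edgeR adjusted p = 4.99e-10), close to the fold threshold. Its call ended without the -HOT library R3 (log2FC -0.98) and without the +HOT library R3 (log2FC -0.93), with total counts (log2FC -0.95), and with scaling along strength (log2FC -0.72) or along strength and GC (log2FC -0.47). The site at 1190002H23Rik (chr14:79701132-79701675, UTR, 39 bp) held 231 and 221 against 112 and 98.3 (log2FC -1.10, SE 0.13, edgeR adjusted p = 2.1e-09). Scaling along strength ended this call (log2FC -0.93), as did scaling along strength and GC (log2FC -0.44). The latter also ended the calls at Camta1 (log2FC -0.84), Cdc34 (log2FC -0.84) and Sfi1 (log2FC -0.75), all of which stayed lower.

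Of the 14 lost sites with the smallest p, 4 lay at a divergent TSS, at Hira, Exoc8, Prelid1 and D6Wsu163e. Hira, a histone chaperone gene, lies 944 bp from its TSS and went from 219 and 225 reads to 86 and 77.2. Its match is on the strand opposite to the gene and scored 13.41 bits. The Sfi1 site is 286 bp wide and was the strongest of the 14, with 299 and 342 against 119 and 167. Leaving out the +HOT library R1 (log2FC -0.92) or scaling along strength (log2FC -0.86) ended its call. Inpp5k, a phosphoinositide phosphatase gene, had the lowest log2FC of the 14 (-1.85, SE 0.20, edgeR adjusted p = 6.62e-11), with 134 and 135 against 42.3 and 31.2. The remaining sites of the 14 were those at Bsg (log2FC -1.63), D6Wsu163e (-1.35), Cdc34 (-1.32) and Fam198b (-1.28).

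The 21 gained sites had log2FC values from 1.003 to 1.71 (median 1.18), and their groups did not overlap. Clustered protocadherins, adhesion genes of neurons whose promoter choice involves CTCF, took 4 of them. Pcdhb12 (chr18:37594983-37595750, UTR, 91 bp) rose from 44.1 and 57.7 reads to 111 and 121 (log2FC 1.21, SE 0.20, edgeR adjusted p = 6.06e-06). Pcdhb8 (chr18:37514511-37515058, 58 bp) held 45.6 and 53.7 against 109 and 101, and Pcdhb11 (chr18:37580832-37581603, 145 bp) 50 and 31.8 against 91.2 and 95.1. Both calls ended when 1 library was left out, at Pcdhb8 without the -HOT library R1 (log2FC 0.96) and at Pcdhb11 without the -HOT library R3 (log2FC 0.88). At Pcdhb12 the log2FC was 0.99 once the -HOT library R1 was left out. With scaling along strength and GC none of the 3 reached the fold threshold (log2FC 0.96 at Pcdhb12, 0.85 at Pcdhb8 and 0.85 at Pcdhb11). These genes are close copies of each other, and no filter on mapping quality is given in the sources used here, so their reads may be divided among copies.

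The other gained sites named by p lay at Crybb3, Grik4, Olfr304, B3galt1 and Gm9765. Crybb3, a lens crystallin gene (chr5:113508765-113509263, first intron, 659 bp), held 50 and 27.9 against 87.9 and 97.5 (log2FC 1.19, SE 0.22, edgeR adjusted p = 7.13e-05). Leaving out the -HOT library R3 (log2FC 0.87) or scaling along strength (log2FC 0.95) ended this call. Grik4, a kainate receptor gene (chr9:42616434-42616890, UTR, 71 bp), held 19.1 and 19.9 against 51.4 and 50.7 (log2FC 1.39, SE 0.30, edgeR adjusted p = 0.000604). The replicates at Grik4 were nearly equal and the groups well apart.

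Olfr304, an olfactory receptor gene (chr7:93534278-93534665, coding exon, 697 bp), held 25 and 15.9 against 48.8 and 64.7 (log2FC 1.41, SE 0.30, edgeR adjusted p = 0.000372). B3galt1, a galactosyltransferase gene (chr2:67956089-67956616, coding exon, 582 bp), held 27.9 in both -HOT libraries against 63.2 and 66.3 (log2FC 1.21, SE 0.26, edgeR adjusted p = 0.0005). At B3galt1 the log2FC fell just below the threshold with scaling along strength (log2FC 0.98) or along strength and GC (log2FC 0.92). Gm9765 (chr1:173445202-173445560, 17 bp) held 19.1 and 17.9 against 36.5 and 62.4, and its call ended without the +HOT library R3 (log2FC 0.97, edgeR adjusted p = 0.0508). Of the 8 gained sites named by p, the +HOT libraries differed most from each other at this one.

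Chosen after their values were seen, some further gained sites are added here. Pcdha3 (chr18:37106173-37106539) is the fourth protocadherin, with 14.7 and 13.9 against 30 and 42.9 normalised reads. Olfr47 is the other olfactory receptor gene, with 16.2 and 41.8 against 57.3 and 59.3, a wide spread in -HOT. Slc32a1, encoding the vesicular GABA transporter (chr2:158436488-158436858, UTR), is the only gained site in CpG-island-like sequence, with 11.8 and 9.95 against 26 and 28.9 (log2FC 1.31, SE 0.41, edgeR adjusted p = 0.0172). The highest fold change was at Gm10750, with 7.36 and 5.97 against 22.8 and 21.8 (log2FC 1.71, SE 0.49, edgeR adjusted p = 0.00832). Of all 21 gained sites, 7 were called under every scaling and 3 without each of the 4 libraries in turn.

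Gene groups were described by their counts, beside the 11.9% of all downstream sites that were lost and their median of -0.47. By the edgeR adjusted p alone 35.4% of all downstream sites were lower and 1.43% higher (9.08% and 9.45% of all tested sites). When scaled along strength and GC, these downstream shares were 17.0% and 4.59%. Scaled along strength and GC, all downstream sites had a median of -0.19, and 1 of the 15 lists changed sign, AP-1 and immediate early genes (0.017). Among genes of protein synthesis and energy supply, 3 of 8 sites at ribosomal protein genes were lost, with 4 lower by the edgeR adjusted p alone and a median log2FC of -0.77. When scaled along strength and GC, 2 of these 8 were lost and 2 lower (median -0.32). Rpl23a (chr11:77996523-77997259, first intron) held 138 and 104 against 60.6 and 42.1 (log2FC -1.24, SE 0.19, edgeR adjusted p = 2.01e-06). Rpl38 (chr11:114530229-114530627) held 64.7 and 61.7 against 29.3 and 31.2 (log2FC -1.07, SE 0.25, edgeR adjusted p = 0.00127). The third was Rpl22. Ribosomal protein genes have many processed copies in the genome, so reads in their exons may be divided among copies.

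At respiratory chain genes 3 of 9 sites were lost and 4 were lower (median -0.48), or 3 and 3 when scaled along strength and GC (median -0.082). Uqcrh, a complex III subunit (chr4:115746767-115747110, first intron, 698 bp), held 91.2 and 105 against 28.7 and 28.1 (log2FC -1.78, SE 0.23, edgeR adjusted p = 1.78e-08). Ndufa12, a complex I subunit (chr10:93661662-93662244, first intron), held 115 and 117 against 48.8 and 26.5 (log2FC -1.59, SE 0.21, edgeR adjusted p = 5.91e-08). Atp5d was the third. At the proteasome genes 0 of 6 sites were lost and 2 were lower (median -0.40), and Psmg2, a proteasome assembly factor, held 61.8 and 61.7 against 50.8 and 47.6 (log2FC -0.32, edgeR adjusted p = 0.353).

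At the chromatin and nuclear genes listed no site was gained. Of 5 sites at histone chaperone genes 2 were lost and 3 were lower (median -0.87), at Hira and at Nasp (chr4:116299578-116299955), a chaperone of H3 and H4. Nasp held 72.1 and 51.8 against 30.6 and 32 (log2FC -1.01, SE 0.25, edgeR adjusted p = 0.00229). Leaving out the -HOT library R1 ended this call (log2FC -0.74, edgeR adjusted p = 0.227), and so did leaving out the +HOT library R1 (log2FC -0.98). All 3 nuclear pore sites were lower (median -0.84; 2 when scaled along strength and GC), and that at Nup188 (chr2:30142573-30142846) was lost, with 33.8 and 39.8 against 18.9 and 14 (log2FC -1.13, SE 0.34, edgeR adjusted p = 0.0116). That call ended without either -HOT library (log2FC -1.26 and edgeR adjusted p = 0.0554 without R1, log2FC -1.03 and edgeR adjusted p = 0.0973 without R3) and without the +HOT library R3 (log2FC -0.94, edgeR adjusted p = 0.058).

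Both sites at the CTCF and cohesin genes were lower with TMM scaling, without being lost (median -0.65), and neither passed the test when scaled along strength and GC (median -0.023). The site in the first intron of Ctcf itself (chr8:108160388-108161523, 476 bp) held 294 and 279 against 174 and 204 (log2FC -0.61, SE 0.11, edgeR adjusted p = 2.07e-05). At Ctcf the log2FC was -0.27 when scaled along strength (edgeR adjusted p = 0.0777) and 0.11 along strength and GC (edgeR adjusted p = 0.568), so its direction depends on the scaling. Among KMT2 complex genes 1 of 4 sites was lost and no other was lower (median -0.40); it lay at the gene of a core subunit (Wdr5, chr2:27370874-27371102), with 14.7 and 29.9 against 7.81 and 5.46 (log2FC -1.65, SE 0.53, edgeR adjusted p = 0.021). This weak site lost its call without the -HOT library R3 (edgeR adjusted p = 0.508) and without the +HOT library R3 (edgeR adjusted p = 0.115).

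At zinc finger Zfp genes 10 of 68 tested sites were lost, 0 were gained, 25 were lower and 0 higher (median -0.58). When scaled along strength and GC, 15 were lower (median -0.40). Of the 10 lost sites 3 lay at Zfp777. Zfp281, a pluripotency-related regulator (chr1:138522149-138522409, coding exon, 801 bp), held 32.4 and 43.8 against 5.86 and 7.02, which is 5.76-fold lower (log2FC -2.53, SE 0.41, edgeR adjusted p = 5.88e-06). Zfp341 (chr2:154439502-154439900, first intron) held 58.8 and 65.7 against 18.9 and 19.5 (log2FC -1.68, SE 0.28, edgeR adjusted p = 8.77e-06). At both genes the +HOT libraries lay far below the -HOT libraries. The +HOT reads at Zfp281 were few, so the size of its fold is uncertain. That site was not tested by DESeq2 or with the filter of a mean of at least 20 counts.

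Among AP-1 and immediate early genes 2 of 12 sites were lost and 3 were lower (median -0.37). Atf1, of the CREB family (chr15:100059083-100059436, first intron), held 91.2 and 87.6 against 30.6 and 30.4 (log2FC -1.55, SE 0.23, edgeR adjusted p = 5.63e-07). Klf4 (chr4:55544029-55544747, first intron) held 127 and 139 against 77.5 and 48.4 (log2FC -1.04, SE 0.18, edgeR adjusted p = 1.93e-05). The Klf4 call ended without the -HOT library R3 (log2FC -0.99) and without the +HOT library R3 (log2FC -0.76), with total counts (log2FC -0.99), and with scaling along strength and GC (log2FC -0.79).

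Of 8 Hox sites 2 were lost, 3 were lower and 1 was higher (median -0.53). Hoxa13 (chr6:52209658-52210230, coding exon) held 82.4 and 109 against 46.2 and 40.6 (log2FC -1.11, SE 0.21, edgeR adjusted p = 7.05e-05), and its call ended without the -HOT library R3 (log2FC -0.93). Hoxa9 (chr6:52179227-52179825, first intron) held 92.7 and 102 against 47.5 and 44.5 (log2FC -1.06, SE 0.20, edgeR adjusted p = 8.01e-05). The protocadherin list was the exception among all lists. There 4 of 10 sites, at 6 genes, were gained and 0 lost, 5 were higher and 0 lower by the edgeR adjusted p alone, and the median log2FC was 0.67. Over all downstream sites 0.615% were gained and 1.43% higher, and over all tested sites 3.9% and 9.45%. The gained count of this list was 2 with scaling along strength and 1 along strength and GC. In both, 5 sites were higher (medians 0.58 and 0.62).

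Among 11 cell cycle and replication sites 1 was lost and 4 were lower (median -0.54). When scaled along strength and GC, 1 was lower (median -0.091). The lost site lay at the replication licensing factor gene Cdt1 (chr8:125092679-125093085, first intron, 967 bp), with 69.1 and 83.6 against 33.9 and 17.2 (log2FC -1.53, SE 0.26, edgeR adjusted p = 1.19e-05). Among p53 and senescence genes 1 of 8 sites was lost and 5 were lower (median -0.66), or 3 when scaled along strength and GC (median -0.41). The lost one, at Rbl1, which encodes the retinoblastoma relative p107 (chr2:157029621-157029908), held 47.1 and 35.8 against 20.8 and 17.2 (log2FC -1.13, SE 0.31, edgeR adjusted p = 0.0063). It was not called without the -HOT library R1 (log2FC -0.91, edgeR adjusted p = 0.22) or by DESeq2 (adjusted p = 0.0639).

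Of 23 sites at extracellular matrix genes 3 were lost, 14 were lower and 1 was higher (median -0.66). With total counts 9 were lower, and with scaling along strength and GC 6 (median -0.46). Fbn2, encoding fibrillin-2 (chr18:58368681-58368956), held 44.1 and 39.8 against 18.2 and 13.3 (log2FC -1.40, SE 0.32, edgeR adjusted p = 0.0011). Mmp15, a membrane-bound metalloproteinase gene (chr8:97876228-97876489), held 29.4 and 27.9 against 11.1 and 7.02 (log2FC -1.63, SE 0.41, edgeR adjusted p = 0.0028), and was not called without the -HOT library R1 (edgeR adjusted p = 0.0983). Col15a1 was the third. Of 17 sites at mesenchymal identity genes 1 was lost and 4 were lower (median -0.57), the lost one at the homeobox gene Prrx1 (chr1:165243521-165243839, UTR), with 57.4 and 59.7 against 27.4 and 27.3 (log2FC -1.09, SE 0.26, edgeR adjusted p = 0.00167).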

How the data were processed

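CTCF ChIP-seq libraries of -HOT and +HOT iMEF were grouped by their titles. Per the study's methods the authors used Trim_Galore, aligned to mm9 with BWA, removed duplicates and blacklisted regions, and called narrow peaks with MACS2. Versions, the counting tool and any pooling for peak calling were not given in the sources used here. Raw counts per site are held in the table deposited by the authors. Of its 8 columns of per-library values, 4 with normalised values were not used, nor were the authors' columns of fold changes and p-values or their lists of gained and lost sites. Columns are numbered R1 and R3 but titles R1 and R2, so columns were assigned to groups only.

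These counts went into edgeR 4.0.16 under R 4.3.3 (quasi-likelihood fit, robust, TMM, filterByExpr at 10 counts), with Benjamini-Hochberg adjustment over all 99560 tested sites. Lost and gained sites had an adjusted p under 0.05 and a log2FC beyond 1 in either direction. SE was derived as |log2FC| over the root of the F statistic. For normalised reads, each count was scaled from the effective size of its library to the mean over the 4 libraries. Sites were placed by their centre on NCBIM37, the mm9 assembly, and GENCODE vM1 (45975 TSS positions of protein-coding transcripts at 22372 genes). Coordinates are 1-based and sequences were read from NCBIM37. At 13 sites the centre was exactly at a TSS and at 101 sites the contig had no annotation; neither was counted downstream. The CTCF matrix was built from the 5000 strongest sites, with a threshold at a p of 1e-05 per position.

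Named sites were the 14 lost and 8 gained with the smallest p among those called, without overlap of the groups and with a mean of at least 20 normalised reads, the strongest site of each distance interval, and up to 2 called sites, or the strongest, of each of 15 gene lists. Members and lists were chosen with earlier results of these data known. Alternatives were DESeq2 1.42.0, other scalings (size factors, total counts, along site strength by loess, along strength and GC with mgcv 1.9.3), count filters, no fold threshold, a replicate block, other TSS sets and windows, and leaving out each library.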

Additional observations from a re-analysis of the deposited data

How the results depend on the processing

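The number of lost downstream sites (407) was 249 of 2193 with DESeq2, 1211 with no fold threshold and 212 within 1 to 500 bp; it lay between 314 and 598 with the other scalings, filters, TSS sets and windows, and between 317 and 475 without each library. The number of gained sites (21) rests on few sites. It was 8 with DESeq2, 10 with scaling along strength, 13 with scaling along strength and GC, 49 with no fold threshold, 69 with the TSS of every transcript type, 8 within 1 to 500 bp and 52 within 1 to 2000 bp, and 13 to 32 without each library (13 without the +HOT library R3, 32 without the +HOT library R1). The median log2FC (-0.47) was -0.50 with DESeq2, -0.41 with total counts, -0.49 with scaling along strength, -0.19 with strength and GC, -0.49 with a mean of at least 20 counts, -0.49 with the 5' end of the gene only, -0.36 with every transcript type and -0.41 within 1 to 2000 bp, and -0.49 to -0.46 without each library. The difference in the share of reads lay between -1.41 and -0.775 with other TSS sets and windows (-1.1 to -1.06 without each library), and that of the downstream to upstream ratio between -0.043 and -0.0183 (-0.0383 to -0.0279). These counts of lost sites, medians, shares and ratios kept their direction under every alternative run, but 5 named sites, none of them called lost or gained with TMM, changed sign. With scaling along strength the log2FC was 0.34 at Gm962, 0.143 at Wwox, 0.14 at Celsr2 and 0.086 at 2010109K11Rik; with strength and GC it was 0.556, 0.251, 0.224 and 0.338, and 0.112 at Ctcf. Of the 407 lost sites, 255 were called under every scaling and 166 without each library in turn; causes were not tested. The library numbers did not pair the samples (r = 0.03 over 99560 sites between the R1 minus R3 differences of both groups), and with the number as a replicate block 419 sites were lost and 19 gained, with a median of -0.465, share and ratio having no such fit. Of the 46 named sites, 40 were called, 21 of them under every setting tried, counting a site left untested as not called. Beside the calls whose end is given above, scaling along strength and GC ended those at Hoxa13 (log2FC -0.89), Nasp (log2FC -0.81), Mmp15 (edgeR adjusted p = 0.0622) and Wdr5 (edgeR adjusted p = 0.157), scaling along strength those at Pcdhb8 and Pcdhb11 (log2FC 0.91 for both), and total counts that at Nasp (log2FC -0.96). With 2 libraries a group, depth limited the calls at sites of up to 20 normalised reads.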
